A study of Mus musculus with 12 samples.

Results

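The integrated stress response and its ATF4 target genes were followed in wild-type (WT) and Rpl10a LOF/LOF mouse embryos, for which ribosome-protected fragments (RPFs, the pieces of mRNA covered by ribosomes) and total RNA had been counted. The genes were given as a list of 36 symbols, which were matched to transcripts through the GENCODE annotation of GRCm38. All 36 were found among the 22467 transcripts counted, with 1 transcript each. The list holds 5 mRNAs with regulatory upstream reading frames, 3 kinases of eIF2α, 3 transcription factors and 25 genes of amino acid supply and stress. Each genotype was represented by 3 whole embryos of day E8.5, and each embryo gave 1 RPF library and 1 RNA library, 12 libraries in all. WT embryos carried unmodified Rpl10a. Per the study, the LOF allele is a CRISPR deletion at the start of the first Rpl10a intron. It leaves translated intron sequence after the first methionine, so the protein carries extra residues near its amino terminus and is otherwise intact. The study calls the allele hypomorphic and kept these mice on a C57BL/6 background. No Cre or transgene is named for the profiled embryos of either genotype. Embryos were lysed with cycloheximide, no embryos were pooled, and their sex was not part of the labels.

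The integrated stress response starts when a kinase such as PERK, GCN2 or HRI phosphorylates the α subunit of the initiation factor eIF2, which lowers the exchange of GDP for GTP by eIF2B and with it general translation initiation. A few mRNAs with short upstream open reading frames (uORFs) escape this, because ribosomes that initiate less readily pass the inhibitory uORF and reach the main start codon. The best known is the mRNA of the transcription factor ATF4, which raises transcription of genes for amino acid synthesis, amino acid transport, tRNA charging and stress. ATF4 levels can therefore rise through translation alone, and the output of the pathway is read from the RNA of ATF4's targets.

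Beside these genes, several properties of the libraries differed between genotypes. RPF libraries held from 7041357 to 10863499 counts and RNA libraries from 9132521 to 26561843. Rpl10a itself had 1562, 1611 and 1679 RPF CPM (counts scaled to the size of the library, with edgeR's TMM factors) in WT embryos and 1125, 1040 and 939.7 in LOF/LOF embryos. The summed RPF level of 20 visceral endoderm markers ran from 8330 to 10900 CPM in WT and from 3590 to 6600 CPM in LOF/LOF embryos, and that of 10 primitive erythroid markers from 840 to 2830 and from 3520 to 5800 CPM. No marker of either list was at 0 in a library. Of 13 mesoderm and neural markers, Msgn1 was called lower in RPF and Myl7 higher in RNA, beside 1.15% and 1.77% of all transcripts. The median log2 difference of the 13 markers was -0.074 in RPF. The 4 Y-linked genes summed to between 163 and 181 RPF CPM in WT embryos. In LOF/LOF embryos 1, 2 and 3 they summed to 9.33, 153 and 0.38 CPM, so the Y-linked signal was not balanced between genotypes. A fit with the Y-linked level as a covariate therefore takes its genotype difference mainly from LOF/LOF embryo 2. Without that embryo, genotype and the Y-linked signal cannot be told apart. In whole embryos, fewer cells of a type and less RNA per cell cannot be told apart.

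The 5 uORF mRNAs are shown first by their upstream start codons, since these are the sequences through which their translation is known to be regulated. Upstream ATGs as such also occur in other members. Each line is 30 bases of the GENCODE transcript, 5′ to 3′. Capitals mark the start codon of the uORF or of the coding sequence (CDS), or, where a uORF has only 3 coding codons, the whole uORF with its stop codon.
Atf4, short uORF: cttgcggccaccATGGCGTATTAGaggcag
Atf4, overlapping uORF: ccggcctaagccATGgcgctcttcacgaaa
Atf4, CDS start: aagccccacaacATGaccgagatgagcttc
Atf5, short uORF: tccgcccgcgcaATGGCTCTGTAGccgcga
Atf5, overlapping uORF: cttttcgccgccATGgagtcctccaccttc
Ddit3, uORF: gtcgattatatcATGttgaagatgagcggg
Ppp1r15a, uORF nearest the CDS: cctgagggcgacATGaacccgctggcttcg
Ppp1r15b, uORF nearest the CDS: tccctagccgggATGgacctaaccgcggtc

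In Atf4, on the plus strand of chromosome 15, the 3-codon uORF starts at chr15:80255582-80255584 and the overlapping uORF at chr15:80255681-80255683, both in exon 1 of 3. The overlapping uORF has 59 coding codons and starts 97 nt before the CDS, and its stop lies 83 nt past the CDS start, in another frame. A further upstream ATG of Atf4, 475 nt before the CDS, opens 36 codons. Atf5, on the minus strand of chromosome 7, has the same arrangement, with a 3-codon uORF at chr7:44816535-44816537 and a uORF of 58 codons at chr7:44816404-44816406 whose stop lies 56 nt past the CDS start. In Ddit3, 34 codons are opened at chr10:127290829-127290831 on the plus strand, and the second ATG visible in the line above lies in the same frame, so both share 1 stop codon. The Ppp1r15a uORF of 26 codons starts at chr7:45526087-45526089 on the minus strand, 104 nt before the CDS, after 2 other upstream ATGs. The Ppp1r15b uORF of 51 codons starts at chr1:133131517-133131519 on the plus strand, 230 nt before the CDS, also after 2 other upstream ATGs. The RPF counts cover the CDS without its first 15 and last 5 codons, so ribosomes on uORFs that end before the CDS were not counted. The overlapping uORFs of Atf4 and Atf5 reach 38 and 11 nt into the counted stretch, where their ribosomes cannot be told apart from those of the CDS in these counts.

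In WT embryos the uORF mRNAs carried few ribosomes for their RNA. To compare genes, the mean RPF CPM was divided by the length of the counted CDS and the mean RNA CPM by the length of the transcript, and the log2 of their ratio was taken. Over the 12564 tested transcripts with lengths the median of this level was 0.75, with quartiles of -0.017 and 1.39. Atf5 stood at -3.86, Atf4 at -3.31, Ppp1r15a at -2.69, Ppp1r15b at -1.59 and Ddit3 at -0.11, all 5 below the lower quartile. Atf4 was at the 0.183 percentile of these transcripts. Atf5 had too few RPF counts to be among them, 5 or 6 per WT library, and the filter that left it out also removed other transcripts of low RPF, so it was given no rank. The other 29 tested members had a median of 1.23 on the same scale, with 11 above the upper and 4 below the lower quartile. Ddit3 rested on 6, 7 and 11 RPF counts and 17, 44 and 38 RNA counts, and its place among the uORF mRNAs is correspondingly loose.

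Upstream ATGs in general went with a lower level. The median log2 RPF per RNA in WT embryos was 1.02 over 6306 transcripts with no upstream ATG in the 5′UTR, 0.63 over 2815 with 1, 0.32 over 1315 with 2, 0.24 over 810 with 3 and 0.074 over 1318 with 4 or more. Atf4, with 3 upstream ATGs, lay 3.31 below 0 and thus far under the lower quartile of -0.64 of the transcripts with the same number. The number of upstream ATGs did not by itself place a member low. Pycr1, for the last step of proline synthesis, also has 3 upstream ATGs and stood at 3.15, the 99.0 percentile, and Psph has 4 and stood at 1.79. Eif2ak4, Cebpb and Eif2ak3 were the lowest members outside the uORF mRNAs, at -0.69, -0.46 and -0.42, with no upstream ATG in the first and second and 3 in the last.

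**Figure D1:**
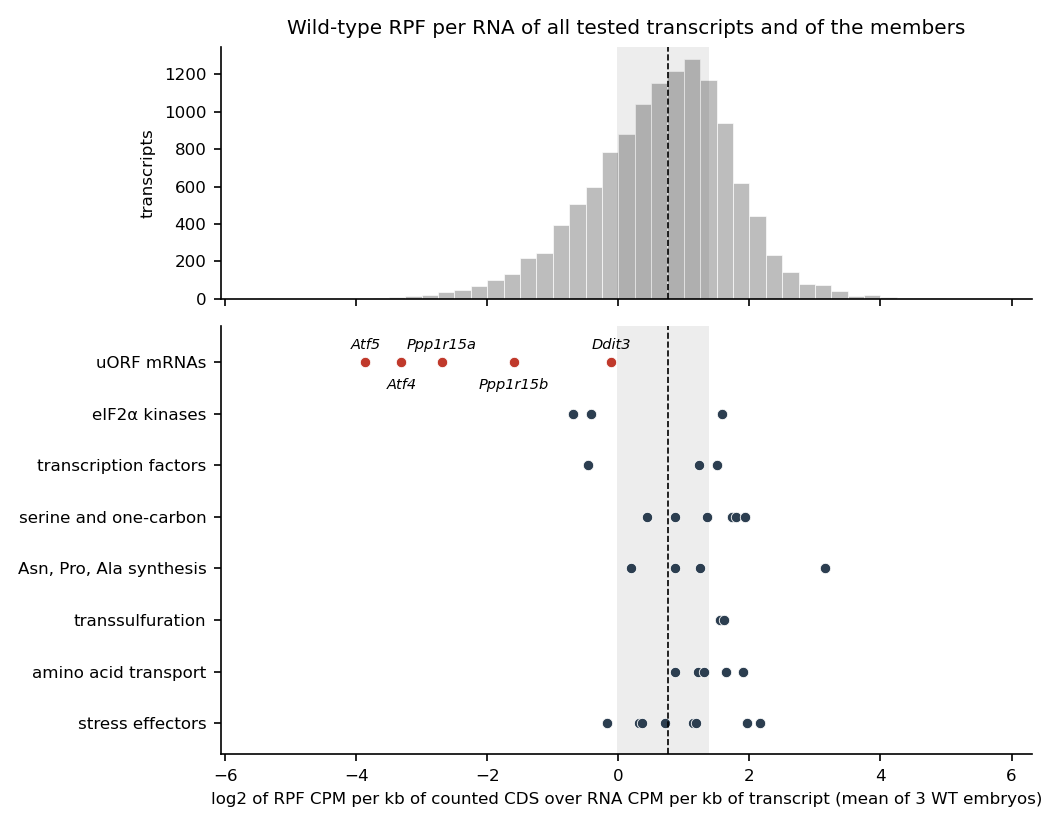
WT log2 ratio of RPF CPM per kb of counted CDS to RNA CPM per kb of transcript. The upper panel counts all tested transcripts by this level and the lower panel shows each member as a point in the row of its role, the untested Atf5, Nupr1 and Chac1 included, with the median of all transcripts as a dashed line at 0.75 and their quartiles shaded. The 5 uORF mRNAs lie to the left of the shaded band, Atf5 farthest at -3.86, and most other members lie in or to the right of it.

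Between genotypes, the members did not move together. Of the 36, 33 exceeded 0.75 CPM in 3 or more of the 6 RPF libraries and were tested, whereas Atf5, Nupr1 and Chac1 were not. In RPF, 2 of the 33 had a false discovery rate (FDR, Benjamini-Hochberg over all 12576 transcripts, edgeR quasi-likelihood test) below 0.1, beside 2.19% of all transcripts. They were Sesn2, which was higher (background 1.05%), and Psph, which was lower (background 1.15%). In RNA, 8 of the 33 were called, beside 5.02% of all transcripts. Atf4, Slc7a1 and Sesn2 were higher (background 1.77%), and Psph, Psat1, Cth, Eif2ak3 and Herpud1 were lower (background 3.25%). The median log2 fold change of the 33 members was -0.062 in RPF and -0.041 in RNA, against 0.0036 and -0.0018 over all transcripts, and 19 of the 33 were below 0 in each. In RPF the LOF/LOF embryos lay above all WT embryos for 5 members and below all of them for 6, beside 9.92% and 9.45% of all transcripts. In RNA these counts were 6 and 11, beside 10.2% and 12.6%. With 3 embryos a genotype, an exact permutation test of a single member cannot give a two-sided p below 0.1.

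No member had an FDR below 0.1 for RPF relative to RNA, tested in edgeR as the interaction of genotype and library, and 0.0% of all transcripts did. This model did not pair the RPF and RNA libraries of an embryo. With an embryo block, 0 of 12576 transcripts had an FDR below 0.1 and 873 an unadjusted edgeR p below 0.05. At an unadjusted p below 0.05 the test without the block held 3 members, beside 559 (4.44%) of all transcripts. Of these, Atf4 and Ppp1r15b were higher (background 2.48%) and the amino acid transporter gene Slc7a5 was lower. Both of the higher members were uORF mRNAs, of which 4 could be tested. Of these 4, Ppp1r15a stood at 0.034 and Ddit3 at -1.43 on the log2 scale, with unadjusted edgeR p of 0.902 and 0.0626. DESeq2 called 4 transcripts in all for RPF relative to RNA, none of them a member. Without LOF/LOF embryo 2, where genotype and the Y-linked signal cannot be told apart, edgeR called 26, 25 of them lower, again with no member.

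**Figure D2:**
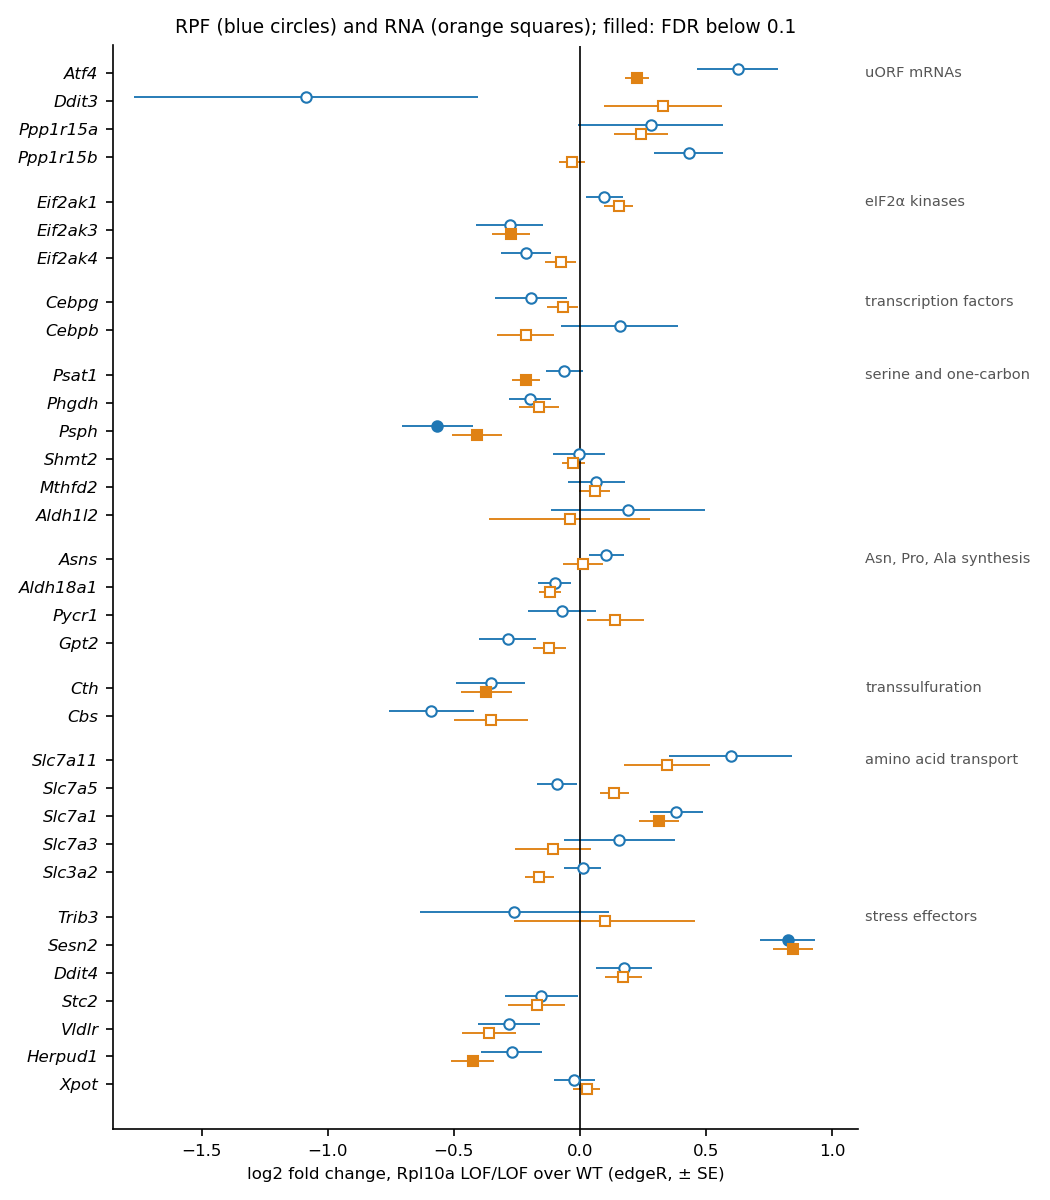
log2 fold change (± SE, edgeR) of the 33 tested members in RPF (blue circles) and RNA (orange squares), LOF/LOF over WT, by role; filled symbols have an FDR below 0.1. Sesn2 stands at the right in both measures, at 0.82 and 0.84, Atf4 and Ppp1r15b are farther right in RPF than in RNA, and the Ddit3 RPF value of -1.09 has the widest error.

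Among the uORF mRNAs, Atf4 was the one with an RNA call. It encodes the transcription factor at the centre of the response. Its RNA was 125.5, 125.3 and 130.1 CPM in WT embryos and 142.7, 155.1 and 148.0 CPM in LOF/LOF embryos. Every LOF/LOF embryo was above every WT embryo, and the increase was 1.17-fold (log2 0.23 ± 0.047 SE, edgeR FDR 0.0397). Its RPF level was 6.12, 7.84 and 8.03 CPM in WT embryos and 10.06, 10.82 and 12.65 CPM in LOF/LOF embryos, from 67 to 133 counts per library. The groups again did not overlap, at a difference of 0.62 ± 0.16 (log2, SE), but the edgeR FDR of 0.108 lay just outside the threshold. Atf4 RPF per RNA, as CPM over CPM, was 0.0488, 0.0626 and 0.0617 in WT and 0.0705, 0.0698 and 0.0854 in LOF/LOF embryos. All 3 LOF/LOF embryos were higher, and the interaction was 0.41 ± 0.14 on the log2 scale, with an unadjusted edgeR p of 0.0111 and an FDR of 1.0. For this ratio, the share of all transcripts without overlap of the genotypes was not counted, here or for the members below.

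Ppp1r15b encodes CReP, the constitutive subunit that directs protein phosphatase 1 to eIF2α. Its RPF level was 33.7, 28.8 and 23.3 CPM in WT embryos and 42.9, 34.4 and 38.8 CPM in LOF/LOF embryos, while its RNA was 229.4, 250.3 and 229.9 CPM and 236.2, 237.1 and 220.9 CPM. The LOF/LOF embryos were higher in RPF without overlap, LOF/LOF embryo 2 by little, and RNA levels overlapped. The RPF difference was 0.43 ± 0.14 (log2, SE; edgeR FDR 0.187) and the RNA difference -0.031 ± 0.053. The interaction of 0.46 ± 0.15 had an unadjusted edgeR p of 0.0067, and the ratios of the 6 embryos overlapped.

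The other uORF mRNAs rested on few RPF counts. Ppp1r15a, for GADD34, the stress-induced subunit of the same phosphatase, had 1.37, 1.29 and 1.25 RPF CPM in WT and 1.90, 1.63 and 1.33 CPM in LOF/LOF embryos, from 11 to 15 counts per library. Its RNA was 10.05, 9.44 and 11.28 CPM in WT and 11.75, 11.63 and 13.29 CPM in LOF/LOF embryos. The RPF groups overlapped and the RNA groups did not, and neither difference passed the test (log2 0.28 ± 0.29 and 0.24 ± 0.11, edgeR FDR 0.768 and 0.291). Ddit3, for CHOP, a factor linked to prolonged stress and cell death, had 0.55, 0.82 and 1.15 RPF CPM in WT and 0.29, 0 and 0.76 CPM in LOF/LOF embryos. LOF/LOF embryo 2 had no count, which allows up to 3 counts or 0.349 CPM by counting error alone. Its RNA was 1.92, 1.69 and 1.83 CPM in WT and 1.80, 2.17 and 3.11 CPM in LOF/LOF embryos, and both measures overlapped (log2 -1.09 ± 0.68 in RPF and 0.33 ± 0.23 in RNA, edgeR FDR 0.524 and 0.535). The Ddit3 RPF difference ran from -2.55 to -0.52 with 1 embryo left out. It was -2.19 with surrogate variables in limma-voom, where it was called lower (FDR 0.0154). With the Y-linked covariate it was -4.40 (FDR 0.295), a value that rests mainly on LOF/LOF embryo 2, the library without a count. The Ddit3 ratio of RPF to RNA was 0.286, 0.485 and 0.626 in WT and 0.162, 0 and 0.245 in LOF/LOF embryos, lower in each of the latter.

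Atf5, for a factor related to ATF4, did not pass the filter. It had 0.55, 0.59 and 0.63 RPF CPM in WT and 0.58, 1.75 and 1.43 CPM in LOF/LOF embryos, at 4 to 15 counts per library. LOF/LOF embryos 2 and 3 lay above all WT embryos and embryo 1 lay among them. Its RNA was 19.08, 19.03 and 20.53 CPM in WT and 17.95, 21.9 and 20.8 CPM in LOF/LOF embryos, with overlap. In the fit without the filter its RPF difference was 1.12 ± 0.46 on the log2 scale (unadjusted edgeR p 0.0231, FDR 0.399) and its interaction 1.08 ± 0.39 (unadjusted edgeR p 0.00955). In that fit 3.31% of 22122 transcripts had an interaction with an unadjusted p below 0.05. In the filtered fit the interactions of Ppp1r15a and Ddit3 were 0.034 ± 0.25 and -1.43 ± 0.71, and no interaction of a uORF mRNA passed the adjusted threshold in either fit. With the summed Y-linked level as a covariate the interactions of Atf4, Ppp1r15b and Ddit3 were 0.22, 0.32 and -4.68, with unadjusted edgeR p of 0.271, 0.141 and 0.00229 and an FDR of 1.0 each. These rest mainly on LOF/LOF embryo 2, which had no Ddit3 RPF count.

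**Figure D3:**
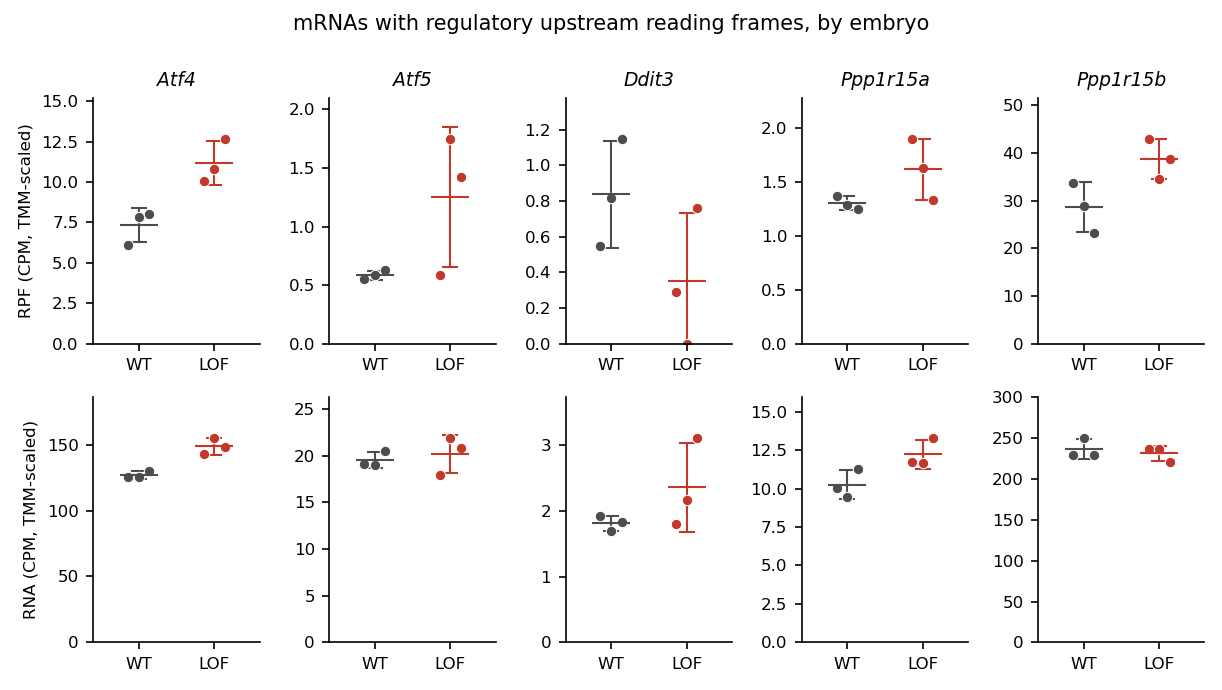
RPF (upper row) and RNA (lower row) level of the 5 uORF mRNAs in CPM, TMM-scaled, with 1 point per embryo and the mean ± SD of 3 embryos. The LOF/LOF points of Atf4 lie above the WT points in both rows, those of Ppp1r15b in the upper row alone, and RPF levels of Atf5, Ddit3 and Ppp1r15a are near or below 2 CPM.

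Of the kinases that start the response, 1 was called, lower in RNA. Eif2ak3, for PERK, the kinase of the endoplasmic reticulum (ER), had 32.5, 35.6 and 31.9 RNA CPM in WT and 28.1, 27.6 and 27.1 CPM in LOF/LOF embryos. All LOF/LOF embryos were lower in RNA, by 0.27 ± 0.075 on the log2 scale (edgeR FDR 0.0901), and by 0.22 to 0.31 with 1 embryo left out, when the FDR ran from 0.117 to 0.233. Its RPF level was 15.8, 20.5 and 17.9 CPM in WT and 15.9, 15.5 and 13.4 CPM in LOF/LOF embryos, with overlap (log2 -0.28 ± 0.13, edgeR FDR 0.394). Eif2ak1, for the heme-regulated kinase HRI, had 75.7, 69.9 and 69.95 RPF CPM in WT and 74.9, 80.4 and 75.2 CPM in LOF/LOF embryos. Its RNA was 55.65, 58.4 and 59.5 CPM in WT and 61.5, 67.5 and 64.6 CPM in LOF/LOF embryos, so RPF levels overlapped and RNA levels did not, and neither passed (edgeR FDR 0.615 and 0.203). Eif2ak4, for GCN2, which senses uncharged tRNA, had 36.9, 35.6 and 33.6 RPF CPM in WT and 27.6, 33.05 and 30.6 CPM in LOF/LOF embryos. It was lower in each LOF/LOF embryo in RPF but not in RNA, at -0.21 ± 0.098 and -0.077 ± 0.060 on the log2 scale (edgeR FDR 0.366 and 0.577).

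Of the partner transcription factors, none was called. Cebpg, for a C/EBP protein that pairs with ATF4, had 16.2, 15.7 and 20.0 RPF CPM in WT and 14.3, 17.5 and 13.6 CPM in LOF/LOF embryos, and its RNA was 86.9, 87.75 and 92.2 CPM and 91.8, 79.9 and 82.65 CPM. Both overlapped between genotypes. Cebpb had from 2.50 to 3.28 RPF CPM in WT and from 2.56 to 3.71 CPM in LOF/LOF embryos, while its RNA was 7.11, 7.29 and 7.57 CPM in WT and 6.10, 6.70 and 6.11 CPM in LOF/LOF embryos. RNA was lower in each LOF/LOF embryo, without a call (log2 -0.22 ± 0.11, edgeR FDR 0.371). Nupr1, a stress-induced cofactor, had at most 3 RPF counts in any library.

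Of the 6 serine and one-carbon genes, which ATF4 is known to raise, Psph and Psat1 were called lower and none was called higher. Psph encodes phosphoserine phosphatase, the last step of serine synthesis. Its RPF level was 59.97, 54.7 and 47.3 CPM in WT and 31.0, 45.5 and 32.8 CPM in LOF/LOF embryos, and its RNA 42.8, 45.6 and 43.7 CPM and 28.8, 38.4 and 32.4 CPM. Psph was lower in every LOF/LOF embryo in both, least in embryo 2, at 0.676-fold in RPF (log2 -0.57 ± 0.14, edgeR FDR 0.0982) and 0.753-fold in RNA (-0.41 ± 0.10, FDR 0.0662). With 1 embryo left out the Psph differences ran from -0.76 to -0.47 in RPF and from -0.54 to -0.31 in RNA. Each difference was called in 1 of 6 such fits, the one without LOF/LOF embryo 2, where genotype and Y-linked signal cannot be told apart. With the summed Y-linked level as a covariate they were -0.31 in RPF and -0.23 in RNA, without a call (edgeR FDR 0.682 and 0.651). Psat1, for the transaminase before it, had 332.3, 317.5 and 307.4 RPF CPM in WT and 334.2, 303.8 and 279.7 CPM in LOF/LOF embryos. Its RNA was 322.6, 297.1 and 311.3 CPM in WT and 270.6, 280.3 and 250.9 CPM in LOF/LOF embryos. Psat1 RNA was lower without overlap (log2 -0.21 ± 0.055, edgeR FDR 0.0774, and -0.13 with the Y-linked covariate, FDR 0.721), whereas its RPF levels overlapped (-0.062 ± 0.075, FDR 0.780). Its ratio of RPF to RNA was 1.03, 1.07 and 0.987 in WT and 1.23, 1.08 and 1.12 in LOF/LOF embryos, higher in each of the latter. The interaction was 0.15 ± 0.097 on the log2 scale (unadjusted edgeR p 0.14).

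Phgdh, for the first step of serine synthesis, had log2 differences of -0.20 in RPF and -0.16 in RNA, with an edgeR FDR of 0.325 and 0.331. In RPF each LOF/LOF embryo was below each WT embryo. Shmt2, the mitochondrial enzyme that passes the serine carbon to folate, had 263.5, 279.2 and 263.7 RPF CPM in WT and 301.6, 217.7 and 285.4 CPM in LOF/LOF embryos, with 109.4, 112.4 and 109.5 and 108.7, 104.7 and 112.3 RNA CPM. LOF/LOF embryo 2 was the lowest and embryo 1 the highest of all 6 in RPF, and the differences were -0.0035 ± 0.10 and -0.027 ± 0.046. Mthfd2, the next mitochondrial folate enzyme, differed by 0.065 and 0.057, and Aldh1l2, at about 1 RPF CPM, by 0.19 ± 0.31 and -0.041 ± 0.32 on the log2 scale.

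Asparagine, proline and alanine synthesis held no call. Asns, for asparagine synthetase, a standard readout of ATF4, had 147.3, 143.0 and 158.4 RPF CPM in WT and 171.1, 153.7 and 158.1 CPM in LOF/LOF embryos. Its RNA was 74.6, 70.8 and 88.0 CPM and 78.9, 82.1 and 74.1 CPM. Both overlapped, at 0.10 ± 0.071 in RPF and 0.013 ± 0.080 in RNA (log2, SE; edgeR FDR 0.567 and 0.959). Aldh18a1, which makes the precursor of proline, had 157.8, 161.9 and 167.0 RPF CPM in WT and 158.3, 151.5 and 144.3 CPM in LOF/LOF embryos, and RNA of 134.5, 136.4 and 134.1 CPM and 127.3, 123.9 and 121.7 CPM. Its RNA was lower in each LOF/LOF embryo by 0.12 ± 0.042 on the log2 scale, short of a call (edgeR FDR 0.187). Pycr1 differed by -0.073 in RPF and 0.14 in RNA, and Gpt2, an alanine transaminase, by -0.29 and -0.12, with an FDR of 0.291 and 0.380.

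Of the transsulfuration genes, which make cysteine from homocysteine, Cth was called lower in RNA. It encodes cystathionine γ-lyase. Its RNA was 28.2, 24.4 and 23.8 CPM in WT and 21.7, 18.3 and 18.2 CPM in LOF/LOF embryos, and its RPF level 43.97, 51.6 and 44.2 CPM and 45.8, 31.65 and 32.6 CPM. RNA did not overlap (log2 -0.37 ± 0.10, edgeR FDR 0.0867), and in RPF LOF/LOF embryo 1 lay among the WT embryos (-0.35 ± 0.14, FDR 0.282). Cbs, for cystathionine β-synthase, had 9.23, 11.6 and 9.49 RPF CPM in WT and 7.72, 5.59 and 6.85 CPM in LOF/LOF embryos, with RNA of 5.42, 5.60 and 4.43 CPM and 3.80, 4.13 and 4.18 CPM. All LOF/LOF embryos were lower in both measures, at -0.59 ± 0.17 and -0.35 ± 0.15, without a call (edgeR FDR 0.145 and 0.260).

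Of the 5 amino acid transporter genes, Slc7a1 was called, higher in RNA. Slc7a1, the carrier of arginine and lysine, had 34.6 to 38.7 RNA CPM in WT and 46.8, 42.65 and 49.6 CPM in LOF/LOF embryos, and its RPF level was 20.7, 21.9 and 22.9 CPM and 31.2, 26.2 and 28.1 CPM. It was higher in every LOF/LOF embryo in both, at 1.24-fold in RNA (log2 0.31 ± 0.079, edgeR FDR 0.0722) and 1.30-fold in RPF (0.38 ± 0.11, FDR 0.134). The RNA difference ran from 0.26 to 0.37 with 1 embryo left out, called in 1 of 6 fits, and was 0.19 with the Y-linked covariate (edgeR FDR 0.683). Slc7a11, the cystine carrier, had differences of 0.60 ± 0.24 in RPF and 0.35 ± 0.17 in RNA at 15 to 28 RPF counts per library, without a call (FDR 0.307 and 0.347), the latter running from 0.22 without WT embryo 2 to 0.57 without WT embryo 3. Slc3a2, the heavy chain shared by several carriers, had 229.7, 218.4 and 201.5 RPF CPM in WT and 233.1, 216.0 and 206.1 CPM in LOF/LOF embryos, and RNA of 86.0, 82.8 and 80.7 CPM and 76.2, 77.1 and 68.6 CPM. Its RPF overlapped and its RNA was lower in each LOF/LOF embryo, by 0.16 ± 0.057 on the log2 scale (edgeR FDR 0.186). Its ratio of RPF to RNA was 2.67, 2.64 and 2.50 in WT and 3.06, 2.80 and 3.00 in LOF/LOF embryos, higher in each of the latter. The interaction was 0.17 ± 0.096 on the log2 scale (unadjusted edgeR p 0.0928).

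Slc7a5, the large neutral amino acid carrier that pairs with Slc3a2, had 69.7, 65.8 and 68.4 RPF CPM in WT and 62.5, 68.5 and 60.3 CPM in LOF/LOF embryos. Its RNA was 92.2, 85.7 and 88.8 CPM and 104.3, 95.6 and 91.8 CPM. Each measure overlapped, but the ratio of RPF to RNA was lower in each LOF/LOF embryo, at 0.599, 0.717 and 0.657 against 0.755, 0.767 and 0.770 (log2 interaction -0.23 ± 0.095, unadjusted edgeR p 0.0304, FDR 1.0). With the Y-linked covariate the Slc7a5 interaction was -0.13 (unadjusted edgeR p 0.342). Slc7a3, a second cationic amino acid carrier, differed by 0.15 ± 0.22 in RPF and -0.11 ± 0.15 in RNA.

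Among the stress effectors, Sesn2 had the smallest FDR of all members in RPF and in RNA. It encodes sestrin 2, a leucine-binding inhibitor of mTORC1 that is a target of ATF4 and also of p53. Its RPF level was 12.7, 13.6 and 14.6 CPM in WT and 23.5, 24.55 and 24.2 CPM in LOF/LOF embryos. Its RNA was 27.3, 27.3 and 28.3 CPM in WT and 54.2, 46.1 and 48.5 CPM in LOF/LOF embryos. The groups lay far apart in both, at 1.77-fold in RPF (log2 0.82 ± 0.11, edgeR FDR 0.0161) and 1.79-fold in RNA (0.84 ± 0.078, FDR 0.00129). The interaction was -0.020 ± 0.12 on the log2 scale (unadjusted edgeR p 0.874), and the ratio of RPF to RNA was 0.465, 0.498 and 0.515 in WT and 0.433, 0.532 and 0.499 in LOF/LOF embryos.

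Herpud1, which serves the degradation of ER proteins, was lower. Its RNA was 37.25, 37.3 and 37.5 CPM in WT and 30.8, 25.3 and 27.2 CPM in LOF/LOF embryos, and its RPF level 49.9, 48.5 and 46.4 CPM and 48.8, 37.5 and 34.5 CPM. RNA did not overlap (log2 -0.43 ± 0.085, edgeR FDR 0.0323), and in RPF LOF/LOF embryo 1 lay among the WT embryos (-0.27 ± 0.12, FDR 0.350). The Herpud1 RPF difference was -0.43 without that embryo, where it was called (edgeR FDR 0.0833), and -0.17 without LOF/LOF embryo 3. Xpot, the exporter of tRNA from the nucleus, had 124.6, 131.3 and 121.3 RPF CPM in WT and 120.4, 137.9 and 113.2 CPM in LOF/LOF embryos, with RNA of 291.2, 305.8 and 305.7 and 325.6, 305.0 and 289.0 CPM. It differed by -0.023 ± 0.083 and 0.027 ± 0.054 on the log2 scale.

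Ddit4, for the mTORC1 inhibitor REDD1, had 52.8, 61.2 and 45.1 RPF CPM in WT and 64.7, 56.3 and 58.7 CPM in LOF/LOF embryos, and RNA of 39.4, 39.7 and 35.8 CPM and 45.2, 42.6 and 41.2 CPM. RPF overlapped and RNA was higher in each LOF/LOF embryo, by 0.17 ± 0.072, short of a call (edgeR FDR 0.259). Vldlr, a lipoprotein receptor gene, was lower in each LOF/LOF embryo in both measures without a call, at -0.28 ± 0.12 and -0.36 ± 0.11 (FDR 0.339 and 0.121), the RNA value being -0.22 without WT embryo 2. Stc2 differed by -0.15 in RPF and -0.17 in RNA, running from -0.32 to -0.059 and from -0.27 to -0.079 with 1 embryo left out. Trib3, a pseudokinase that ATF4 and CHOP raise, had 7 to 14 RPF counts per library and differed by -0.26 ± 0.38 and 0.097 ± 0.36. Chac1, a glutathione-degrading enzyme and a sensitive ATF4 target, had 1 to 7 RPF counts per library and lay below the filter. In the fit without it, Chac1 differed by 0.82 ± 0.69 in RPF and 0.66 ± 0.50 in RNA.

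**Figure D4:**
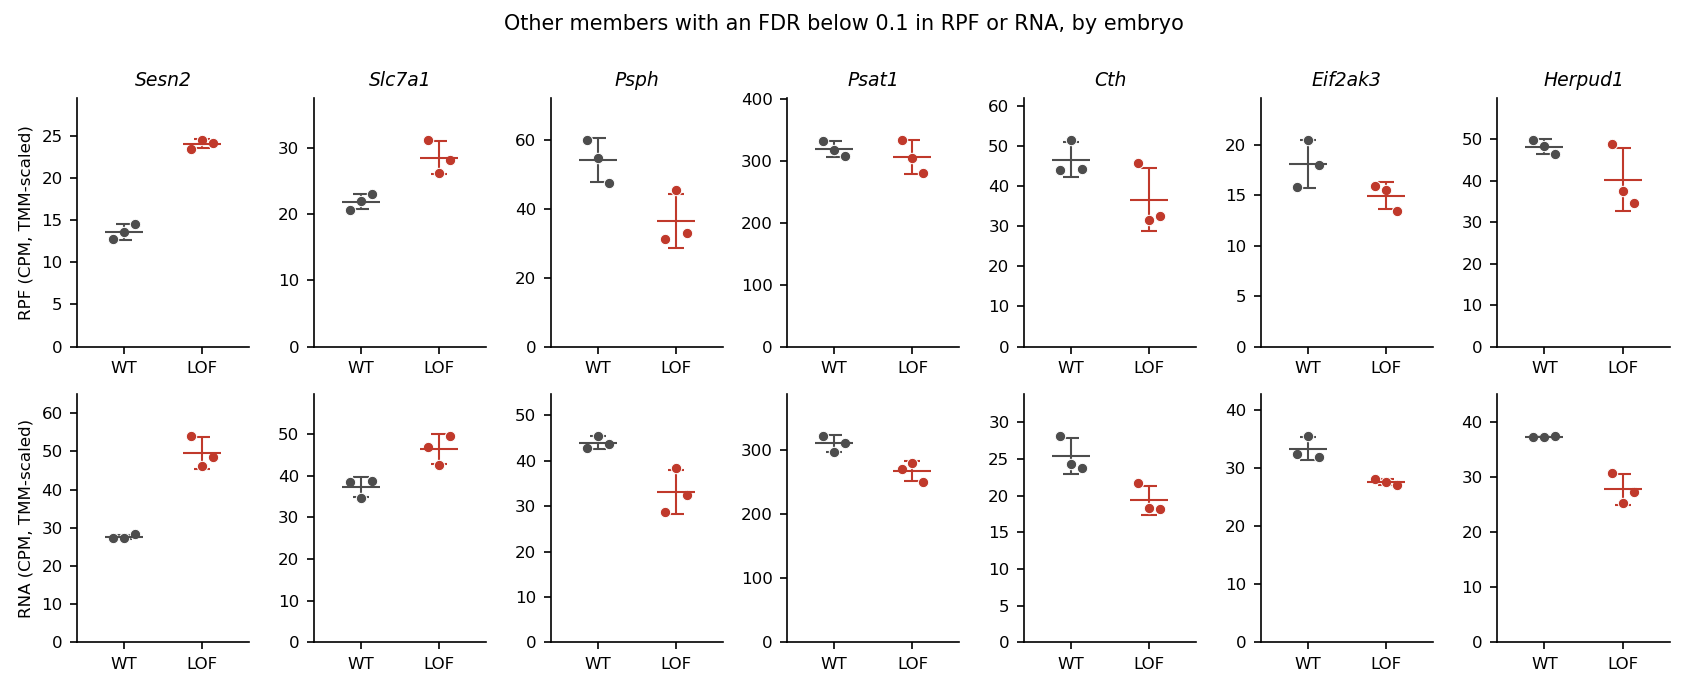
RPF (upper row) and RNA (lower row) level in CPM, TMM-scaled, of the 7 members other than Atf4 with an FDR below 0.1 in either measure, with 1 point per embryo and the mean ± SD of 3 embryos. LOF/LOF points of Sesn2 and Slc7a1 lie above the WT points in both rows; for Psat1, Cth, Eif2ak3 and Herpud1 the separation is in the RNA row and the RPF points overlap.

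ATF4 acts on its targets through C/EBP-ATF response elements, whose common core can be written TGATGNAA. This motif, on either strand, was searched in RefSeq promoters of GRCm38.p6, each with 250 bases before and 50 after the gene's start. It occurred in 3.97% of the 32851 promoters, and in at least 1 promoter of 4.51% of the 27025 genes and of 8 of the 31 members with an entry. The windows below show the motif in capitals, on the strand of the gene, for members with standard ATF4 roles and for Herpud1, the member with a match that was called. A pair of matches lies in Slc7a11.
Asns: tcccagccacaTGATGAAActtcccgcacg
Slc7a11: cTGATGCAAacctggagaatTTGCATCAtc
Chac1: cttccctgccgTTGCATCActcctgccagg
Pycr1: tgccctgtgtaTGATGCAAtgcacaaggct
Herpud1: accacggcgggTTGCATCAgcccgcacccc

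These windows lie at chr6:7693214-7693243 (Asns, minus strand), chr3:50443651-50443680 (Slc7a11, minus), chr2:119351038-119351067 (Chac1, plus), chr11:120643833-120643862 (Pycr1, minus) and chr8:94386306-94386335 (Herpud1, plus). Trib3, Nupr1 and Vldlr also held a match. The RNA differences of the 6 tested members with a match were 0.013 for Asns, 0.35 for Slc7a11, 0.14 for Pycr1, 0.097 for Trib3, -0.36 for Vldlr and -0.43 for Herpud1 on the log2 scale. Members with a match therefore lay on both sides of 0. The promoters of Sesn2, Slc7a1 and Atf4, the members called higher in RNA, held none of these letters in the window searched.

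Of the other genes tied to the response, the tRNA synthetases held no call. All 20 cytosolic aminoacyl-tRNA synthetases, which charge tRNA and which ATF4 is known to raise, were tested, and none was called in RPF, in RNA or in RPF relative to RNA. Their log2 differences ran from -0.082 to 0.16 in RPF and from -0.054 to 0.089 in RNA, and their summed RPF level from 7110 to 7170 CPM in WT and from 6970 to 7800 CPM in LOF/LOF embryos. The 2 with the highest level, Eprs and Vars, differed by 0.043 and -0.020 in RPF. Of the 4 related lists, this one had the narrowest range in both measures.

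Of 11 genes for eIF2, eIF2B and related factors, 1 was called in RPF and 1 in RNA, both higher, beside 1.05% and 1.77% of all transcripts. Above 0 were 11 of the 11 in RPF and 10 in RNA, against 6399 and 6207 of all 12576 transcripts. Eif2b3, for a subunit of the exchange factor, had 80.9, 79.5 and 81.7 RPF CPM in WT and 112.8, 97.2 and 95.6 CPM in LOF/LOF embryos, without overlap (log2 0.33 ± 0.080, edgeR FDR 0.0873). Eif2s3x, the X-linked gene of the γ subunit of eIF2, had 493.5, 480.5 and 513.3 RNA CPM in WT and 789.6, 529.2 and 734.2 CPM in LOF/LOF embryos (0.46 ± 0.12, FDR 0.0755). Its high values were in LOF/LOF embryos 1 and 3, the same embryos in which the Y-linked genes, Eif2s3y among them, were low. Eif2s2, the most abundant of the list in RPF, differed by 0.0062 ± 0.084.

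Of 19 further genes associated with ATF4 or CHOP, 17 were tested and 2 were called in RNA, beside 5.02% of all transcripts. Of these, 1 was higher and 1 lower (background 1.77% and 3.25%). Bbc3, for the cell death protein PUMA, which is also a target of p53, had 7.45, 7.83 and 7.52 RNA CPM in WT and 14.6, 10.2 and 10.8 CPM in LOF/LOF embryos, a 1.57-fold increase (log2 0.65 ± 0.14, edgeR FDR 0.0462). Ero1l, for an oxidase of the ER, fell by 0.21 ± 0.049 (log2, SE) in RNA, with an FDR of 0.0573. The amino acid transporter gene Slc38a2 and the folate enzyme gene Mthfd1l, the most abundant of this list in RPF, differed by 0.039 and -0.081 in RPF.

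The ER protein folding genes, which PERK's neighbouring branches of the unfolded protein response raise, lay mostly below 0. Of 20 genes, 19 were below 0 in RPF and 19 in RNA, against 6177 and 6369 of all 12576 transcripts. In RNA, 7 were called lower and none higher, and in RPF 1 was called lower, beside 3.25% and 1.15% of all transcripts. Dnajc3, for the chaperone P58IPK that restrains eIF2α kinases, was called in both. It had 124.2, 124.9 and 128.1 RPF CPM in WT and 80.9, 103.0 and 96.7 CPM in LOF/LOF embryos (log2 -0.42 ± 0.088, edgeR FDR 0.0572). Xbp1, the transcription factor of the IRE1 branch, had 125.4, 123.7 and 130.7 RNA CPM in WT and 94.95, 92.15 and 83.1 CPM in LOF/LOF embryos (-0.49 ± 0.056, FDR 0.00317). Hspa5, for the chaperone BiP, fell by 0.21 ± 0.048 in RNA (FDR 0.0504), and the others called lower were Dnajb9, Sdf2l1, Manf and Edem1. Hsp90b1 had a difference of -0.20 ± 0.065 in RPF without a call (FDR 0.192). The visceral endoderm markers given above, a secretory tissue's genes, were lower in the same libraries. Of 20 markers, 15 were called lower in RPF and 17 in RNA, beside 1.15% and 3.25% of all transcripts. Their part in the ER differences and in those of Herpud1, Eif2ak3, Cth and the serine genes was not tested.

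**Figure D5:**
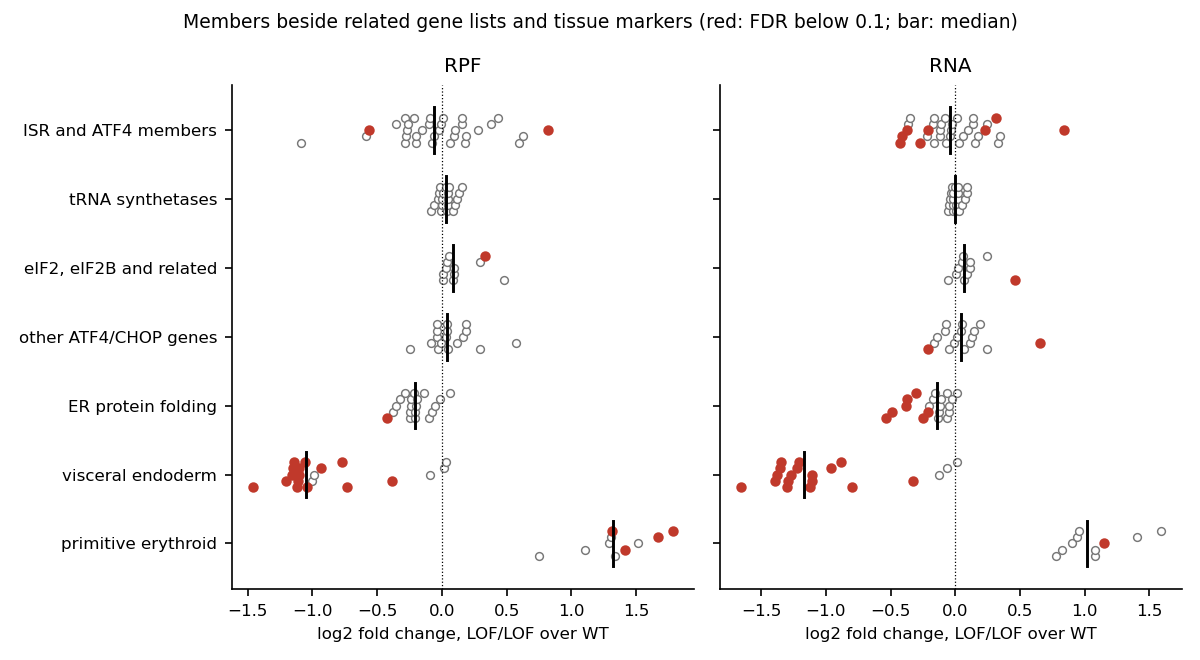
log2 fold change of each tested gene, LOF/LOF over WT, in RPF (left) and RNA (right), for the members and 6 other gene lists; red points have an FDR below 0.1 and bars mark list medians. The tRNA synthetases lie close to 0, the ER genes mostly below it at medians of -0.21 and -0.14 in RPF and RNA, and the endoderm and erythroid markers lie farthest out in opposite directions.

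The number of calls differed between fits, over all transcripts as among the members. Sesn2 was called in RNA in all 14 fits made and in RPF in 12 of 14. Its RPF call was lost without WT embryo 1 or without WT embryo 2, when 0 members and 0.0954% and 0.0318% of all transcripts were called, though its RPF difference stayed between 0.77 and 0.87 over the 6 fits with 1 embryo left out. Without WT embryo 3 or LOF/LOF embryo 3 Sesn2 alone was called in RPF, beside 1.2% and 0.318% of all transcripts, and without LOF/LOF embryo 1 it was called with Cth and Herpud1, beside 1.52%. Without LOF/LOF embryo 2, genotype and the Y-linked signal cannot be told apart. In that fit the members called in RPF were 6 (Atf4, Gpt2, Ppp1r15b, Psph, Sesn2 and Slc7a1), beside 11.5% of all transcripts. With surrogate variables in limma-voom they were 9 (Atf4, Ppp1r15b, Sesn2 and Slc7a1 higher, Cbs, Cth, Ddit3, Herpud1 and Psph lower), beside 10.4%. With RLE size factors Sesn2 alone was called, beside 2.19%.

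In RNA, leaving out WT embryos 1, 2 and 3 left 1, 4 and 3 members called, beside 1.1%, 3.59% and 3.82% of all transcripts, and leaving out LOF/LOF embryos 1, 2 and 3 left 4, 5 and 3, beside 3.5%, 4.72% and 2.67%. Of the 14 fits, Herpud1 was called in RNA in 12, Atf4 in 11, Psat1, Psph and Slc7a1 in 8 each, Cth in 7 and Eif2ak3 in 3. In RPF, Psph was called in 7 and Atf4 in 5. With a replicate block 3 members were called in RPF and 6 in RNA, beside 2.49% and 4.2% of all transcripts. With the summed Y-linked level as a covariate, Sesn2 was the single member called in RPF and in RNA, beside 0.183% and 0.278% of all transcripts. The RNA differences in that fit were 0.28 for Atf4, -0.53 for Herpud1, -0.42 for Cth and -0.27 for Eif2ak3. These were about as large as or larger than without the covariate, whereas those of Psph, Psat1 and Slc7a1 were smaller, as given above. All of them rest mainly on LOF/LOF embryo 2, the LOF/LOF embryo with a Y-linked level near that of WT.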

How the data were processed

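Each of the 12 libraries came from 1 whole embryo, and groups were taken from the submitters' labels. Per the study's methods, the authors trimmed reads with cutadapt, removed rRNA, tRNA and snRNA reads with Bowtie2, aligned the rest to GENCODE canonical transcripts of GRCm38/mm10 and removed PCR duplicates with UMI-tools. The deposited values are counts without normalization, in the CDS without its first 15 and last 5 codons for RPF and on the entire transcript for RNA. RNA counts therefore include UTRs and RPF counts do not. Because duplicates were removed by molecular identifiers, a count stands for about 1 captured fragment, and intervals and floors cover counting error only.

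The members and gene lists were chosen with earlier results of these data known. Transcripts were named through GENCODE M21 of GRCm38, where 21976 identifiers matched with their version, 477 (Cbs among them) with another version and 14 did not match. The spans of 6 members overlap a gene on the opposite strand. Whether the counting used strand is not given in the sources used here. Upstream ATGs were read from the same transcripts.

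After a filter that kept transcripts above 0.75 CPM in 3 or more of the 6 RPF libraries, which follows the authors' methods as do TMM scaling of each library type and the FDR threshold of 0.1, the genotypes were compared with edgeR 4.0.16 (quasi-likelihood test, R 4.3.3), separately in RPF and RNA, and for RPF relative to RNA as an interaction over the 12 libraries. The study's methods name voom, limma and sva without the design, so these were alternatives (limma 3.58.1, sva 3.50.0), beside DESeq2 1.42.0, RLE size factors, no filter, a replicate block, an embryo block, a Y-linked covariate and each embryo left out. Replicates of a group are different embryos, and no pair of libraries agreed within sampling noise. The SE of a log2 difference was derived from the edgeR test, as the absolute difference over the square root of its F statistic. The steps were tested on simulated data.

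Values by embryo are given for the uORF mRNAs, every member with an FDR below 0.1, and the 2 members of each other role with the highest mean RPF level. Other members are given by their differences, and other lists by counts, called genes and their 2 most abundant genes. Of the markers, sums are given.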

Additional observations from a re-analysis of the deposited data

How the results depend on the processing

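Members called in RPF numbered 2 in the reported fit, 1 with RLE size factors (Sesn2, beside 2.19% of all transcripts), 1 with the Y-linked covariate (Sesn2), 9 with surrogate variables, and between 0 and 6 with an embryo left out. In RNA they numbered 8, 1 with the Y-linked covariate (Sesn2), and between 1 and 5 with an embryo left out. With a replicate block the counts were 3 and 6, beside 2.49% and 4.2% of all transcripts. The replicate numbers do not pair embryos: deviations of WT and LOF/LOF embryos with the same number correlated between -0.099 and 0.0886 in RNA and between -0.084 and 0.0166 in RPF. For RPF relative to RNA, 0 members were called under all 15 settings. Of 942 single-gene log2 differences under alternatives, 835 kept direction and side of the threshold, 50 lost a call, 19 gained one and 38 changed sign, the last without a call in either fit. With the Y-linked covariate RPF differences were -0.145 for Cebpb, 0.0068 for Slc7a5, 0.248 for Trib3 and 0.128 for Xpot, RNA differences 0.308 for Aldh1l2 and 0.0161 for Ppp1r15b, and the Sesn2 interaction 0.0706. With surrogate variables they were 0.0118 for Xpot in RPF, -0.00753 for Trib3 in RNA, and -0.0935 for Ppp1r15a and 0.0105 for Sesn2 in RPF relative to RNA. The replicate block put Aldh1l2 RNA at 0.0126. With an embryo left out, RPF differences ran from -0.0701 to 0.128 for Mthfd2, -0.212 to 0.0134 for Pycr1, -0.0971 to 0.126 for Shmt2, -0.0406 to 0.0561 for Slc3a2, -0.183 to 0.317 for Slc7a3, -0.568 to 0.0225 for Trib3 and -0.108 to 0.0403 for Xpot. RNA differences ran from -0.341 to 0.146 for Aldh1l2, -0.0548 to 0.116 for Asns, -0.0528 to 0.0172 for Ppp1r15b, -0.0505 to 0.000282 for Shmt2, -0.419 to 0.358 for Trib3 and -0.0214 to 0.0662 for Xpot, and interactions from -0.103 to 0.23 for Ppp1r15a and -0.0887 to 0.0674 for Sesn2. The cause of these changes was not tested. Counts limit Nupr1, Chac1, Trib3 and the uORF mRNAs Atf5, Ddit3 and Ppp1r15a, which have at most 15 RPF counts per library.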
